A study of Mus musculus with 2 samples.

Results

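Steroidogenic and ACTH-linked miRNA genes are miRNA genes studied for their part in hormone synthesis in adrenal cortex and gonad, or for their response to ACTH, the pituitary hormone that drives the adrenal cortex. They were taken by symbol as Mir132, Mir212, Mir202, Mir383, Mir320, Mir455 and Mir139. Their levels are not part of the rule, though the genes were chosen with earlier results of these data known. All 7 were found, of 2202 miRNA genes in the tables. Each had at least 10 counts in each library, the minimum used here to call a gene detected, which 358 genes passed. The samples were whole adrenal glands of female B6CASTF1/J mice, an F1 hybrid strain of C57BL/6J and CAST/EiJ parents, at 14 days of age. The series has 1 group of 2 small RNA libraries, labelled biological replicates 1 and 2, with no treatment and no ACTH stimulation. By its label, replicate 1 came from 3 females, whereas the label of replicate 2 names a numbered female. The same donor identifier stands on both labels. The differences between replicates given here measure the spread between these 2 libraries, which may be technical, and compare no conditions.

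As background, a miRNA is cut from a hairpin precursor as a short strand from either arm, and bases 2 to 8 of that strand, the seed, pair with target messenger RNAs and repress them. ACTH acts on cortex cells through cyclic AMP, which turns on the uptake of cholesterol and its conversion to steroids. Mir132 and Mir212 come from a shared precursor whose transcription is driven by the cyclic AMP-responsive factor CREB, and their levels rise in the rat adrenal after ACTH. Mir455 represses Scarb1, the receptor that brings HDL cholesterol into steroid-producing cells. Mir320 and Mir383 are known from ovarian granulosa cells, where they act on estradiol output, and Mir202 is known from testis and ovary. Mir139 lies within Pde2a, which encodes a phosphodiesterase that breaks down cyclic AMP and cyclic GMP.

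Mature strands of 5 of the 7 genes were matched in a RefSeq table of build GRCm38.p6. Mir320 and Mir383 are given by name. The strands are shown because their seeds set which genes can be considered together, with the seed in capitals and each strand written 5′ to 3′.
miR-132-3p: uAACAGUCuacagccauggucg
miR-212-3p: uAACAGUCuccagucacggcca
miR-132-5p: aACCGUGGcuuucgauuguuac
miR-212-5p: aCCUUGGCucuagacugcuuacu
miR-202-3p: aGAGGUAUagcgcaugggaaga
miR-202-5p: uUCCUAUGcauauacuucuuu
miR-455-3p: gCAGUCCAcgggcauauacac
miR-455-5p: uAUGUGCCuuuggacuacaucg
miR-139-5p: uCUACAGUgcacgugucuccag
miR-139-3p: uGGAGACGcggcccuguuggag

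The 3p strands of Mir132 and Mir212 were the only strands among these 10 with a shared seed. Counted from the 5′ end, the strands were identical at 17 of 22 positions, the first 9 among them, and miR-212-3p differed from miR-132-3p at A10C, C14U, U17C, U20C and G22A. No other gene of the RefSeq table has their seed. The 5p strands of the pair have different seeds. None of the 10 strands was contained in the hairpin of another gene among 1005 hairpins. The deposited counts set aside reads that mapped to several places, so a second hairpin copy would bear on how complete the counts of these 5 genes are. The search covered 1005 hairpins, fewer than the 2202 miRNA genes counted, so copies in the remaining genes were not looked for. Whether the strands match elsewhere in the genome was not tested. Counts are per hairpin gene, so the 5p and 3p strands could not be measured apart. A read spans a whole mature strand, so levels of different genes are compared without division by gene length. How evenly different strands enter a library was not measured, so orders and ratios between genes are those of counts.

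Replicate 1 held 3797107 counts on miRNA genes and replicate 2 held 5034257. A count of 3, the most that an observed count of 0 allows, equals 0.790 CPM (counts scaled to the miRNA total of the library) in replicate 1 and 0.596 CPM in replicate 2. All intervals and this limit cover counting error only. The reads carry no molecular identifiers, so copies of a molecule cannot be told apart and the intervals may be too narrow. The libraries differed widely in miRNAs of other organs. Mir122, the main miRNA of hepatocytes, took 0.290% of counts in replicate 1 and 21.5% in replicate 2. That share is part of the total behind every other gene's CPM in replicate 2. For the summed share and each of the 7 genes, the level with Mir122 taken out of the totals is therefore given as well. The tables hold miRNA genes only, so protein-coding markers of adrenal cortex could not be checked.

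Together the 7 genes made up 2.18% ± 0.0149 of all miRNA counts (SD, n = 2). Their share was 2.17% in replicate 1, with a Wilson 95% interval of 2.16 to 2.19, against 2.19% in replicate 2, with an interval of 2.18 to 2.20. The small SD holds for these totals, since the share was 2.48% ± 0.434 when Mir122 was taken out of them and 2.21% ± 0.476 over library sizes adjusted by edgeR's TMM factors, which level the bulk of genes. Mir139 alone supplied 80.2% of the members' counts in replicate 1 and 83.1% in replicate 2. The other 6 genes summed to 0.400% ± 0.0417 of all counts. The levels spanned a wide range, from Mir139 among the 15 most abundant miRNA genes of the gland to Mir202 at rank 262.

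**Figure D1:**
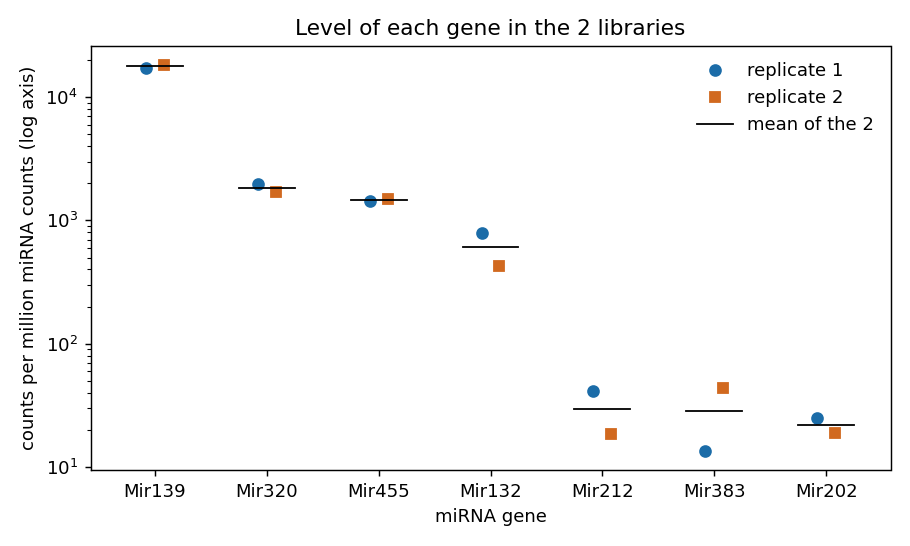
Level of each of the 7 miRNA genes in CPM (log axis) in replicate 1 (circles) and replicate 2 (squares), with a line at the mean. Mir139 lies near 17812 CPM, Mir320, Mir455 and Mir132 between 430 and 1977 CPM, and Mir212, Mir383 and Mir202 below 44 CPM with values that cross.

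Mir139 (ENSMUSG00000065446.1) was the leading gene, with 66115 counts in replicate 1 and 91687 in replicate 2. Its level was 17412 CPM in replicate 1 and 18213 CPM in replicate 2, a mean of 17812 ± 566 CPM (SD, n = 2), at ranks 14 and 12 of all miRNA genes. The 2 libraries were close on this scale, but with Mir122 out of the totals the mean was 20325 ± 4048 CPM, so the small SD depends on the total used. Of the 358 detected genes, 95.8% had a lower mean level. The hairpin occupies bases 101475376 to 101475443 of mm10 chromosome 7 (plus strand) within an intron of Pde2a, which is read in the same direction, 53685 bases downstream of the annotated start of that gene. GENCODE M21 places it also in an intron of the overlapping protein-coding gene Gm45837. Host transcripts were not measured by these libraries.

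Mir320 (ENSMUSG00000065528.1) followed with 7506 and 8624 counts in replicates 1 and 2, or 1977 and 1713 CPM. Mir320 held ranks 55 and 52, with a mean of 1845 ± 186 CPM (SD, n = 2), and 2082 ± 140 CPM with Mir122 out of the totals. It is intergenic, at bases 70443510 to 70443591 of chromosome 14 (plus strand), with 62 bases between it and Polr3d, a gene for an RNA polymerase III subunit on the minus strand. Mir455 (ENSMUSG00000070102.1), the repressor of Scarb1, had 5503 and 7456 counts, which are 1449 and 1481 CPM. Its values differed little between libraries by CPM and gave a mean of 1465 ± 22.5 CPM (SD, n = 2), against 1670 ± 306 CPM with Mir122 out of the totals. Mir455 occupies bases 63256851 to 63256932 of chromosome 4, within an intron of the fibrillar collagen gene Col27a1 and in its direction.

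Mir132 (ENSMUSG00000065537.2) had 2997 counts in replicate 1 and 2165 in replicate 2, or 789 and 430 CPM. Replicate 1 was the higher library, and the mean was 610 ± 254 CPM (SD, n = 2). With Mir122 out of the totals, Mir132 had a mean of 670 ± 173 CPM. Mir212 (ENSMUSG00000065590.1) had 156 and 92 counts, or 41.1 and 18.3 CPM. It too was higher in replicate 1, with a mean of 29.7 ± 16.1 CPM, and 32.2 ± 12.7 CPM with Mir122 out of the totals. Both hairpins lie on the plus strand of chromosome 11 in an intron of the noncoding transcript 1700016P03Rik. Mir212 runs from 75173388 to 75173478, and Mir132 from 75173682 to 75173747, with 203 bases between them. The hairpins are shown because the pair is cut from a common transcript, with the annotated mature strands in capitals.
Mir212 hairpin: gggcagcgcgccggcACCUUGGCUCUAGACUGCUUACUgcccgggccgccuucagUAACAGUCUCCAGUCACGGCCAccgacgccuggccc
Mir132 hairpin: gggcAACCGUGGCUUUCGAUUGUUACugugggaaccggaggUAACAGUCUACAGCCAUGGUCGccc

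Mir132 gave many times the counts of Mir212 in both libraries. The ratio of Mir132 to Mir212 was 19.2 in replicate 1 (exact 95% counting interval 16.4 to 22.7) and 23.5 in replicate 2 (19.1 to 29.3), a mean of 21.4 ± 3.06 (SD, n = 2). No scaling between libraries enters this ratio. The change of the ratio from replicate 1 to replicate 2 had a log2 value of 0.29 (95% counting interval -0.09 to 0.67, normal approximation), an interval that includes no change. Nearly all counts on the 2 genes thus belonged to the Mir132 hairpin, and the arms of neither gene are told apart.

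Mir383 (ENSMUSG00000065457.3), the granulosa cell miRNA, had 51 counts in replicate 1 and 219 in replicate 2. That is 13.4 CPM in replicate 1 and 43.5 CPM in replicate 2, with a mean of 28.5 ± 21.3 CPM (SD, n = 2). With Mir122 out of the totals, the mean of Mir383 was 34.4 ± 29.6 CPM. The libraries stood far apart, and the rank moved from 290 in replicate 1 to 216 in replicate 2. It occupies bases 38252133 to 38252202 of chromosome 8 (minus strand), within an intron of Sgcz, which encodes zeta-sarcoglycan. Its start is 409306 bases from the annotated start of that host.

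Mir202 (ENSMUSG00000065502.1), the gonadal miRNA, had 94 counts in each library, or 24.8 CPM in replicate 1 and 18.7 CPM in replicate 2. It was the lowest of the 7 by mean, at 21.7 ± 4.30 CPM (SD, n = 2), and still above 26.8% of the detected genes. With Mir122 out of the totals, its mean was 24.3 ± 0.746 CPM, so the spread depends on the total used. Mir202 occupies bases 139957689 to 139957760 of chromosome 7 (minus strand), over an exon of the noncoding gene Gm2044. The Mir202 hairpin also lies in an intron of the noncoding transcript Gm16201, which is on the opposite strand. Its nearest annotated miRNA gene, mmu-mir-7686, is 66 bases away and had 0 counts in both libraries. The nearest annotated miRNA genes of the 4 remaining genes were far off. They were Mir7666 for Mir383, at 2055672 bases, Gm44340 for Mir320, at 143502, Gm44497 for Mir455, at 4376220, and Gm22655 for Mir139, at 405740. Mir7666 had 12 counts in each library and the other 3 had 0.

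The seed of miR-202-3p is the same as that of let-7j, whose gene Mir7j had 282 and 198 counts. Bases 2 to 7 of miR-202-3p are those of the let-7 family, which held 12 detected genes among the 14 with these bases, led by Mirlet7g at 78954 ± 6720 CPM, Mirlet7i at 42195 ± 10193 CPM and Mirlet7b at 38943 ± 7578 CPM. At position 8 the substitution from miR-202-3p to let-7g-5p is U8G. Among genes with these 6 bases, Mir202 was thus a minor source of counts, and let-7 genes with near-identical copies lose reads that map to several places.

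For the other strands, few seed relatives were found among the RefSeq strands, which do not cover all counted miRNA genes. Mir5129 has the seed of miR-455-5p and had 10 and 4 counts, under the detection minimum in replicate 2. Mir6397 has bases 2 to 7 of miR-139-3p and had 0 counts in both libraries. No relative of miR-139-5p, miR-455-3p or miR-202-5p by bases 2 to 7 was in the RefSeq table.

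**Figure D2:**
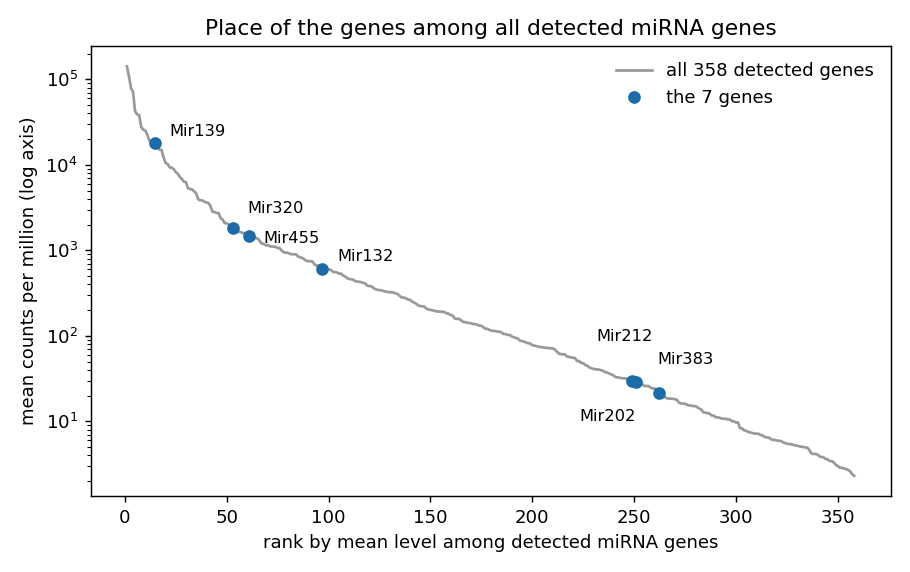
Mean level in CPM (log axis) against rank for the 358 detected miRNA genes (grey line), with the 7 genes as points. Mir139 stands at rank 15, Mir320, Mir455 and Mir132 at ranks 53, 61 and 97, and Mir212, Mir383 and Mir202 at ranks 249, 251 and 262.

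The upper 4 of the 7 genes kept their order in both libraries, and the lower 3 did not. By mean CPM it ran Mir139, Mir320, Mir455, Mir132, Mir212, Mir383 and Mir202. Mir139 exceeded Mir320 by 8.81-fold in replicate 1 and by 10.6-fold in replicate 2. Mir320 exceeded Mir455 in both libraries, by 1.36-fold (95% counting interval 1.32 to 1.41) and 1.16-fold (1.12 to 1.19). Mir455 exceeded Mir132 by 1.84-fold and 3.44-fold. By CPM over library totals, the values of these neighbours did not overlap between libraries. Over TMM library sizes, Mir320 had 1846 ± 201 CPM and Mir455 had 1484 ± 332 CPM (SD, n = 2), and these spreads overlap. Mir212, Mir383 and Mir202 overlapped and changed places. Mir212 had 3.06 times the counts of Mir383 in replicate 1 and 0.420 times in replicate 2, so no order among these 3 can be given from the 2 libraries.

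By level in both libraries, the gene nearest to Mir139 among 351 other detected genes was Mir23a, with a summed absolute difference of log2(CPM + 1) of 0.21 over the 2 libraries. Mir542 was nearest to Mir132, at 0.05, and had 3076 and 2188 counts. Mir293 was nearest to Mir212, at 0.11. The nearest to Mir320, Mir455 and Mir202 were Mir351, Mir361 and Mir8112, at 0.34, 0.35 and 0.20. Mir383 had no close counterpart, since its nearest gene, the epithelial miRNA gene Mir205, was 0.92 away. With 2 libraries this likeness is a closeness of levels and no pattern over conditions.

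Between the libraries, 1 of the 7 genes differed by more than 2-fold. Ratios of replicate 2 to replicate 1 are given after TMM scaling, which sets the bulk of genes level. Mir383 had a log2 ratio of 2.11 (exact 95% counting interval 1.68 to 2.59), or 4.33-fold higher in replicate 2. Of all 358 detected genes, 17.9% lay past 2-fold, 9.22% higher and 8.66% lower in replicate 2, so 1 of 7 is near the background. The median absolute log2 ratio was 0.46 over the 7 genes and 0.46 over all detected genes. With library totals in place of TMM, 19 of the detected genes were higher and 78 lower past 2-fold, against 33 and 31 with TMM.

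The remaining genes moved in different directions by less than 2-fold. Mir139 had a log2 ratio of 0.49 (0.48 to 0.51) and Mir455 one of 0.46 (0.41 to 0.51). Mir320 had 0.22 (0.18 to 0.27) and Mir202 had 0.02 (-0.41 to 0.45). Mir132 had -0.45 (-0.53 to -0.37) and Mir212 had -0.74 (-1.13 to -0.36). Both genes of the CREB-driven pair thus stood lower in replicate 2, while the counting interval of Mir202 spans no difference. Under library totals, the median log2 ratio of all detected genes moved from -0.06 to -0.48. Mir139, Mir455 and Mir320 then had 0.06, 0.03 and -0.21, Mir132 and Mir212 had -0.88 and -1.16, and Mir383 had 1.69. With Mir122 out of the totals, Mir139, Mir455 and Mir320 had 0.41, 0.38 and 0.14, Mir132 and Mir212 had -0.53 and -0.82, Mir202 had -0.06 and Mir383 had 2.03. Under library totals Mir212 passed 2-fold, and the signs of Mir320 and Mir202 turned, as that of Mir202 did with Mir122 left out. The signs of Mir383, the pair, Mir139 and Mir455 were the same under TMM, library totals, totals without Mir122 and DESeq2 size factors. Under TMM, the ratios of Mir132, Mir320 and Mir202 lay within the middle 50% of detected genes, from -0.51 to 0.41.

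**Figure D3:**
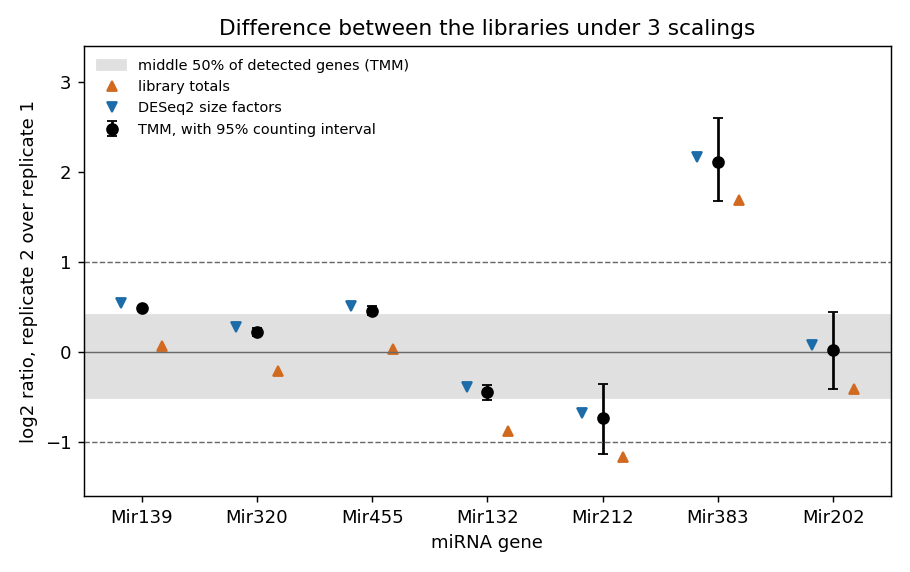
Log2 ratio of replicate 2 to replicate 1 for each gene after TMM scaling (black, with exact 95% counting intervals), library totals (upward triangles) and DESeq2 size factors (downward triangles). The band holds the middle 50% of detected genes, from -0.51 to 0.41, the dashed lines mark 2-fold, and Mir383 lies above them under all 3 scalings.

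Ratios of 2 genes within a library do not depend on scaling, and their change was taken for all 21 pairs of the 7 genes. In 8 pairs the ratio changed by more than 2-fold, among them all 6 pairs with Mir383. The other pairs were Mir212 with Mir455 and Mir212 with Mir139. Their log2 changes were -1.20 (95% counting interval -1.58 to -0.82) and -1.23 (-1.61 to -0.86), by normal approximation as for all pairs. Of the 21 pairs, Mir455 and Mir139 kept the closest ratio, with a log2 change of -0.03 (-0.09 to 0.02). It was 0.0832 Mir455 counts per Mir139 count in replicate 1 and 0.0813 in replicate 2. The log2 change for Mir132 against Mir139 was -0.94 (-1.02 to -0.86). These pairs share genes, so their changes are not independent. The share past 2-fold over pairs of all detected genes was not computed, so 8 of 21 has no background to be read against.

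Other miRNA genes studied in steroid-producing cells or in the adrenal response to ACTH were taken as a list of 15, all of which were detected. Against the same background of 17.9% past 2-fold, 3 of the 15 were higher in replicate 2, 1 was lower, and 11 were within 2-fold. The median log2 ratio of the list was -0.01, beside -0.06 for all detected genes and 0.22 for the 7. Mir125a, which like Mir455 represses Scarb1, had 11165 counts in replicate 1, 31771 in replicate 2 and a log2 ratio of 1.53. Mir21a, known to promote aldosterone output in adrenal cells, was the most abundant of the list with 157386 and 44808 counts, and lower in replicate 2 at -1.79. Mir214 and Mir183, studied as lowered and raised by ACTH in rat adrenal, were higher at 1.09 and 1.14. Mir182, from the same cluster as Mir183, stood at 899 ± 146 CPM (SD, n = 2) and 0.76. Mir125a and Mir455, which share a target, thus differed in their ratios. The ratio of Mir21a lay opposite to that of Mir383.

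**Figure D4:**
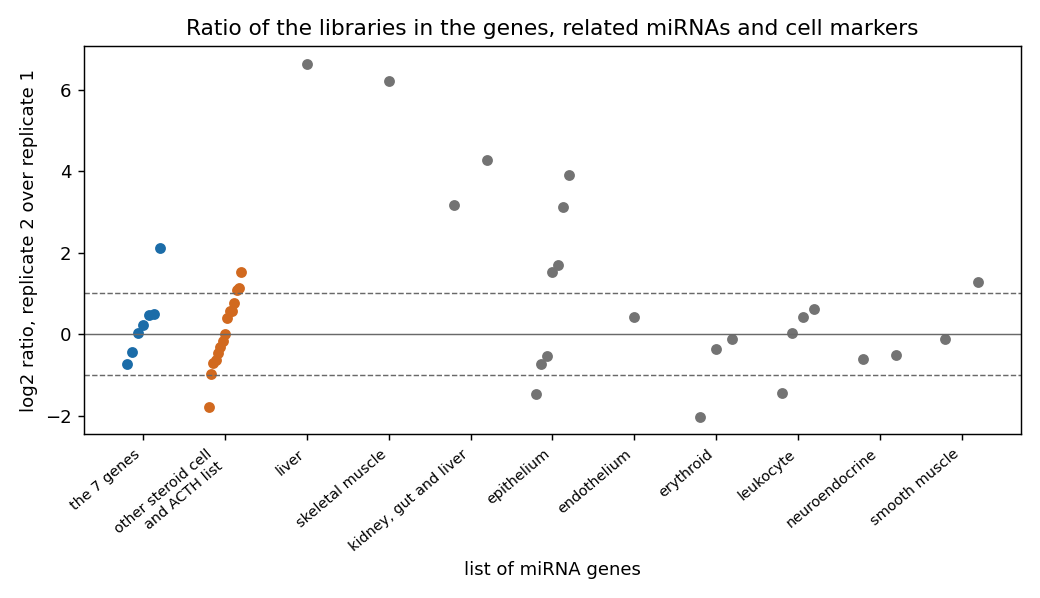
Log2 ratio of replicate 2 to replicate 1 (TMM scaling) of each detected gene, by list: the 7 genes, the 15 related miRNA genes and markers of other cell types, with dashed lines at 2-fold. Mir383 is the highest of the 7 at 2.11, and the liver and muscle markers reach 6.64 and 6.22.

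Some markers of other cells moved in the direction of Mir383, while the epithelial markers were mixed. The log2 ratios of markers are TMM scaled, while the summed shares of the lists are over library totals that include Mir122. Shares of the lists without Mir122 in the totals were not computed. Liver Mir122 had a log2 ratio of 6.64 and skeletal muscle Mir206 had 6.22. The other 2 skeletal muscle markers were under the detection minimum, Mir133b with 0 and 3 counts and Mir1b with 5 and 7. On the list of kidney, gut and liver markers, both detected genes of 3 were past 2-fold, Mir192 at 4.28 and Mir194-2 at 3.18. The list summed to 0.0107% of counts in replicate 1 and 0.115% in replicate 2. Of the 7 epithelial markers, 4 were higher, among them Mir200b at 3.90 and Mir429 at 3.13, while Mir141 was lower at -1.48. Mir200c and Mir203, the most abundant of the list at 1107 ± 506 CPM (SD, n = 2), had -0.73 and -0.54. The epithelial list summed to 0.159% and 0.112%. Whether such cells contributed to the Mir383 counts was not tested.

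In the other marker lists, ratios were smaller than that of Mir122, and several were below 0 like those of Mir132 and Mir212. Erythroid markers summed to 0.224% of counts in replicate 1 and 0.0560% in replicate 2. Mir451a had a log2 ratio of -2.03, while Mir144 and Mir486 were within 2-fold at -0.37 and -0.12. Leukocyte markers summed to 0.216% and 0.107%, with Mir142 at -1.44 and Mir150, Mir223 and Mir155 at 0.61, 0.43 and 0.03. Neuroendocrine markers summed to 3.86% and 2.00%, with Mir375 at -0.51 and Mir7b at -0.60, and 2 of the 4 listed symbols matched no gene. Smooth muscle markers summed to 4.65% and 3.27%, with Mir143 at -0.13 and Mir145a at 1.27. Endothelial Mir126a took 14.2% and 14.1% and had a log2 ratio of 0.41, near those of Mir139 and Mir455. Under library totals, the scale of the summed shares, Mir143 had -0.56 and Mir126a had -0.02. No marker list but skeletal muscle and kidney, gut and liver had an undetected gene, and no matched marker was at 0 in both libraries. The part of these cells in the levels of the 7 genes was not tested, and fewer cells of a type cannot be told apart from less RNA per cell in whole glands.

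Counts on the opposite strand were 0 for all 7 in both libraries, and the counts made without regard to strand were equal to the stranded ones for each gene. The raw counts of the 7 therefore do not depend on the strand setting.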

How the data were processed

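Small RNA of adrenal glands was sequenced in 2 libraries. For each miRNA gene the authors deposited an unnormalized whole-number count. Build mm10 and annotation GENCODE M21 are named in the deposited text files of each library. Neither an aligner nor a counter is given in the sources used here. Columns carry no names. Column 3 was used as the gene's own strand, and the 4 summary lines were left out of totals. Reads mapping to several places, 28.0% and 25.0% of reads, were set aside by the authors' counting. All 2202 identifiers matched GENCODE M21 genes. Mature strands and hairpins come from RefSeq.

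CPM, Wilson intervals for shares and exact Clopper-Pearson intervals for ratios between libraries or within a library were computed. Changes of the ratio of a pair of genes between libraries have intervals by normal approximation. TMM factors (1.16 and 0.862) came from edgeR on the 358 genes with at least 10 counts in each library. Log2 ratios used a prior count of 0.5. With 1 library on each side no p-value was computed, and a difference past 2-fold was counted. The ratio and its interval were tested on simulated counts that held counting error alone, at the scaling used here. That checks the calculation, and cannot show whether the intervals are wide enough for real libraries. The members, the lists and the rule for named genes were chosen with earlier results of these data known. The rule names all members, their nearest gene by level and by position, up to 3 seed relatives, and of the list of 15 the genes past 2-fold and the 4 most abundant. Marker genes and further pairs were named after their values were seen. Alternatives were library totals, DESeq2 size factors, a prior count of 5, count minimums of 1 and 100, the unstranded column, TMM-scaled CPM, each replicate left out, and Mir122 left out of CPM totals. Leaving Mir122 out of ratios and Mir139 out of the sum was added after seeing the data. Tools were edgeR 4.0.16 and DESeq2 1.42.0 under R 4.3.3, and scipy 1.17.1, pandas 2.3.3, numpy 2.4.6 and matplotlib 3.10.9 under Python 3.11.15.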

Additional observations from a re-analysis of the deposited data

How the results depend on the processing

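The summed share of the 7 genes, 2.18%, was 2.48% with Mir122 out of the totals, 2.88% in the unstranded column, 2.21% over TMM library sizes and 0.400% without Mir139. The unstranded column holds 2837768 and 3872233 counts on miRNA genes, fewer than the stranded one, while the counts of the 7 are the same in both. Under library totals 1 of the 7 genes, Mir212, was lower by more than 2-fold, against 0 with TMM scaling and 0 with Mir122 out of the totals. Its counting interval under TMM, -1.13 to -0.36 in log2, includes 2-fold. Mir383 was higher by more than 2-fold under every scaling, prior count and column tried. Of all detected genes, 64 were past 2-fold, 33 higher and 31 lower in replicate 2. These counts were 97, 19 and 78 with library totals, 155, 76 and 79 with a count minimum of 1, and 37, 18 and 19 with a minimum of 100, which also change how many genes are counted. Leaving out either replicate gives the other library's own levels and leaves no ratio between libraries to compute. With 51 and 219 counts for Mir383, and 94 for Mir202 in each library, depth limits the lower ratios. No paired analysis was possible because the series has a single group.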
